A study of Mus musculus with 6 samples.

Results

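The adaptor Dab1 and the kinases, adaptors, exchange factor and small GTPases that act inside the cell after reelin binds its receptors were examined in mouse cerebellum. They were chosen by name as 10 gene symbols: Dab1, Fyn, Src, Yes1, Crk, Crkl, Rapgef1, Rap1a, Rap1b and Pafah1b1. All 10 were found among the 24537 genes listed for every library. RNA-seq had been run on cerebellum from male mice aged 6 weeks, in 6 libraries. The wild-type group held 3 libraries labelled C57BL/6, and the other held 3 libraries labelled Orl/BalbC from mice heterozygous for a Reln null allele. Genotype and strain label therefore changed together, and their effects cannot be told apart. No label states that libraries of 1 group are separate animals, so p-values measure the spread between these libraries, which may be technical.

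Reelin is a secreted glycoprotein that binds the receptors Vldlr and Lrp8. Binding clusters the receptors, and the Src-family kinases Fyn and Src then phosphorylate Dab1 on tyrosines. Phosphorylated Dab1 recruits the adaptors Crk and Crkl, which carry the exchange factor encoded by Rapgef1 that loads Rap1 with GTP, and it also binds Lis1 (encoded by Pafah1b1), a regulator of the motor dynein. In the developing cerebellum the pathway is known for positioning Purkinje cells. Much of this signalling runs through phosphorylation and protein turnover, which RNA levels do not measure.

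Several of the genes are paralogs, so their sequences were compared first, to see whether a read could be assigned to 1 of them. Reads were 75 bases long and lost 2 bases to trimming, which leaves 73. The Rap1a and Rap1b coding sequences, both 555 bases, were identical at 81.6% of positions in GENCODE M21, and no identical run was longer than 20 bases. Their most similar stretches of 73 bases, at coding positions 295 to 367 counted from the A of the start codon, are shown because they are the closest that any 2 of the compared paralogs came. They differ at 6 positions, in capitals:
Rap1a: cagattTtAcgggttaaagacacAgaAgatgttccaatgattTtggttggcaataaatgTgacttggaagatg
Rap1b: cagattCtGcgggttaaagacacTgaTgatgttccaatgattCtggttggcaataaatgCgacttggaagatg

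Among the kinases, Fyn and Yes1 were identical at 70.8% of aligned coding bases, Fyn and Src at 69.7%, and Src and Yes1 at 69.6%. In their closest 73 bases Fyn and Src differed at 9 positions and Src and Yes1 at 11. The closest 73 bases of Fyn and Yes1, coding positions 1229 to 1301 of Fyn and 1250 to 1322 of Yes1, differ at 10 positions and are shown as the pair with the highest identity among the kinases over the whole coding sequence:
Fyn: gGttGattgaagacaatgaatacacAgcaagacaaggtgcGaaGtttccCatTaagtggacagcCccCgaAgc
Yes1: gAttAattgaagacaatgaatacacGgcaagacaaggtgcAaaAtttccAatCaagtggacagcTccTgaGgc

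Crk and Crkl were identical at 67.6% of aligned bases, with at least 13 differences in any 73 bases. No stretch of 73 bases in the principal transcript of 1 of the 10 genes occurred in a transcript of another of the 10. Outside them, exact sharing touched 4 genes. Of the 4514 stretches in Yes1, 12.2% also occurred in Gm10461, an unclassified locus on the opposite strand. Of the Rapgef1 stretches 3.32% occurred in the pseudogene Gm9823, also on the opposite strand, and of the Rap1a stretches 5.52% occurred in the processed pseudogene Gm9392. For Pafah1b1 the share was 0.14%, in 2 pseudogenes. None of these 5 other loci was listed in the files. The libraries were stranded, but whether the quantification used strand is not stated in any source at hand, so reads of these partners may be counted in Yes1 and Rapgef1. Reads from the stretches shared with the other pseudogenes may likewise be counted in Rap1a and Pafah1b1. GENCODE M21 also places other loci within the spans of Dab1, Fyn, Yes1, Crkl and Rap1a (Gm12719 and Gm12717 for Dab1), and none within those of Src, Crk, Rap1b or Pafah1b1. Coordinates below are those of GENCODE M21 on GRCm38, the assembly also called mm10.

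The starts of the 2 Crk-family adaptors are shown because these paralogs share a role and had different levels, described below. Each run is the 250 bases before the start in RefSeq (GRCm38.p6, plus strand), with the GC box in capitals, GGGCGG or, on the other strand, CCGCCC. For Crk this is chr11:75679009-75679258, and for Crkl chr16:17451735-17451984:
Crk: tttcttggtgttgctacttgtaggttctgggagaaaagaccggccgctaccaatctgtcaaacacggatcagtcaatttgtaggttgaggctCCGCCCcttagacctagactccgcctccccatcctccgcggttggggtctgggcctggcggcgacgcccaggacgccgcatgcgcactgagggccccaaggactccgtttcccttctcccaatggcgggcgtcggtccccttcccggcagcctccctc
Crkl: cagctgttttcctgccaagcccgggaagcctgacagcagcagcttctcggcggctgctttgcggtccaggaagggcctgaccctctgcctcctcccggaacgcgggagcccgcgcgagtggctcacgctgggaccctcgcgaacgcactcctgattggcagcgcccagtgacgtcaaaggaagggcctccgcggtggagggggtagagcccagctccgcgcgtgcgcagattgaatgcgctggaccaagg

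RefSeq windows were found for 9 of the 10 genes, at 10 starts, 2 of them for Dab1, and the same 250 bases were searched on both strands. Rap1a had no entry. The windows of Dab1 (141 and 182 bases), Src (177), Pafah1b1 (110), Rap1b (61) and Fyn (35) lay partly in exons of the same gene in GENCODE M21. All 10 windows held more CpG pairs (10 to 40, median 22.5) than the median of all 32851 RefSeq windows, which was 6. The GC box was in 6 of 10, against 32.7% of all windows. The motif CCAAT, on either strand, was in 5 of 10 against 33.8%, and TATAAA in 0 of 10 against 12.4%. The Crk window held 18 CpG pairs and 1 GC box, and the Crkl window 23 CpG pairs and no GC box. These matches describe letters only.

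The cerebellar origin was visible in the libraries. Of the granule cell markers 9 of 10, and of the Purkinje cell markers 7 of 8, were at 1 FPKM or more in every library, and none was at 0 throughout. Markers summed to 577 to 660 FPKM for granule cells and 180 to 253 for Purkinje cells in wild type, and to 616 to 651 and 233 to 243 in heterozygous libraries. Markers of forebrain neurons summed to at most 1.11 FPKM. Choroid plexus markers differed within both groups, with sums of 0.811 to 286 FPKM for wild-type and 3.66 to 163 for heterozygous libraries, and the part of such tissue in the results below was not tested. The number of reads behind each value is not known. An approximate depth of 22900000 to 28600000 reads, derived from the lowest values, would give counting errors of 13.5% to 16.3% for Fyn and 11.4% to 13.7% for Yes1, but after scaling of the libraries these genes varied by only 5.55% and 4.41%, so no read number or counting error is given for any gene. In bulk tissue, fewer cells of a type and less RNA per cell cannot be told apart.

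The genes spanned a wide range of RNA levels. On the FPKM scale, which is per length, Pafah1b1 was highest and Dab1 lowest. Comparing genes on this scale rests on the transcript lengths used, and the annotation release behind them is not named. Over the 6 libraries Pafah1b1 averaged 9.14 FPKM, above 95.9% of all genes with a value in every file, and Dab1 0.211 FPKM, above 56.0% of them. Between them came Crk at 3.93, Rap1b at 1.60, Crkl at 1.51, Src at 1.15, Rap1a at 0.688, Yes1 at 0.548, Rapgef1 at 0.540 and Fyn at 0.494 FPKM. The ranges over libraries of Pafah1b1 and Crk did not overlap, nor those of Crk and Rap1b, of Src and Rap1a, and of Fyn and Dab1. Rap1b and Crkl could not be ordered, since each was the higher in 3 of 6 libraries. The same held for Yes1 and Rapgef1. Crkl lay above Src, Rap1a above Yes1, and Rapgef1 above Fyn in 6 of 6 libraries although their ranges overlapped. An error in the length used would recur in every library, so such counts cannot address it.

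**Figure D1:**
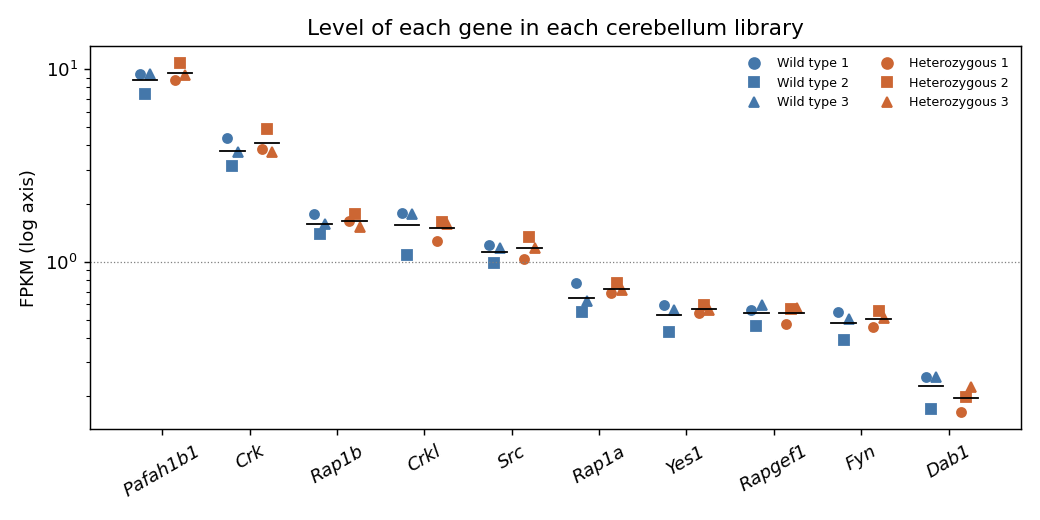
FPKM (log axis) of the 10 genes in the 3 wild-type libraries (blue) and 3 heterozygous libraries (orange), with marker shapes for replicates 1 to 3 and black bars for group means; the dotted line is the minimum mean of 1 FPKM for the test over all genes. Pafah1b1 averaged 9.14 FPKM and Dab1 0.211 FPKM, and the groups overlapped for every gene.

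None of the 10 genes passed a test between the groups, and as deposited the groups overlapped for all 10. Of them, 5 reached an average of 1 FPKM (Src, Crk, Crkl, Rap1b and Pafah1b1) and entered the limma test over 6358 genes on log2(FPKM + 1), of which 0 of 5 passed an adjusted p of 0.05; 0 of 5 had an unadjusted p under 0.05. Over all tested genes 0.0786% passed, so a count of 0 says little about these genes as a set. Dab1, Fyn, Yes1, Rapgef1 and Rap1a lay under that minimum and were compared singly by two-sided exact permutation, whose smallest possible p for 3 against 3 libraries is 0.1. When the minimum was lowered to 0.1 FPKM, all 10 entered the limma test, 0 of 10 passed and the lowest adjusted p was 0.98, against 0.00818% of 12226 genes that passed. The groups overlapped for 10 of 10 genes, while 5.88% of the 12226 genes at the minimum of 0.1 FPKM had groups that did not overlap. For 0 of the 5 tested genes did they not overlap, against 5.55% of all tested genes. With shares this low, overlap in all 10 says little about these genes as a set.

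Dab1, the adaptor on which the receptors' signal converges, had the lowest level. The gene lies at chr4:103619359-104744844. Wild-type replicates 1, 2 and 3 had 0.252, 0.172 and 0.252 FPKM, and the heterozygous ones had 0.166, 0.198 and 0.223 FPKM. Wild-type replicates 1 and 3 lay above all heterozygous libraries, while wild-type replicate 2 lay below 2 of them, so the groups overlapped. The mean was 0.225 ± 0.046 FPKM in wild type and 0.196 ± 0.029 in heterozygous cerebellum (SD, n = 3 each), a ratio of 0.868. The two-sided exact permutation p was 0.3, and on the log2(FPKM + 1) scale the means differed by -0.035, with a limma 95% interval of -0.12 to 0.048 when the minimum was 0.1 FPKM. The difference was -0.067 without wild-type replicate 2, -0.019 without wild-type replicate 1 or 3 and -0.017 without heterozygous replicate 1, and with a pseudocount of 0.1 in place of 1 it was -0.13.

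Dab1 was set beside the ligand and receptors that act before it. Reln had 0.834, 0.771 and 0.940 FPKM in the wild-type replicates against 0.531, 0.509 and 0.580 in the heterozygous ones, a ratio of means of 0.636 (two-sided exact permutation p = 0.1, the smallest possible). Dab1 RNA over Reln RNA was 0.302, 0.223 and 0.268 in wild type and 0.313, 0.389 and 0.385 in heterozygous libraries, without overlap. Its two-sided exact permutation p was 0.1, and 0.6 after Benjamini-Hochberg adjustment over 12 ratios. Reln, the divisor, was itself lower in every heterozygous library, so the ratio does not show a change in Dab1. The share of all tested genes whose groups separate when set over Reln was not computed. Dab1 over Vldlr was 0.0516 to 0.0579 across the wild-type libraries, and the heterozygous range of 0.0435 to 0.0524 overlapped it. Dab1 over Lrp8 was 0.182 to 0.248 in wild-type and 0.176 to 0.198 in heterozygous libraries, also with overlap. The ratio of heterozygous to wild-type means was 1.01 for Vldlr and 0.993 for Lrp8.

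The Src-family kinases Fyn, Src and Yes1 had levels that overlapped between the groups. Src (chr2:157418444-157471862), the most abundant of the 3, had 1.22, 0.981 and 1.18 FPKM in the wild-type replicates against 1.03, 1.34 and 1.17 in the heterozygous ones. Fyn (chr10:39368855-39565381), the kinase best known for acting on Dab1 in brain, had 0.545, 0.393 and 0.502 FPKM against 0.456, 0.551 and 0.513. Yes1 (chr5:32611171-32687057), a close relative of both, had 0.596, 0.434 and 0.562 FPKM against 0.539, 0.597 and 0.560. For all 3 the lowest library was wild-type replicate 2 and the highest heterozygous replicate 2, and the groups overlapped. The ratio of heterozygous to wild-type means was 1.05 for Src (limma log2 difference 0.034, SE 0.090, adjusted p = 0.93), 1.06 for Fyn (two-sided exact permutation p = 0.6) and 1.07 for Yes1 (two-sided exact permutation p = 0.8). These 3 differences turned lower without wild-type replicate 2, to -0.016 for Src, -0.016 for Fyn and -0.013 for Yes1; that of Src was also -0.017 without heterozygous replicate 2.

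Within a library, where any scaling of the whole library cancels, Src RNA was 2.23 to 2.50 times Fyn RNA, Yes1 was 1.08 to 1.18 times Fyn, and Src was 1.91 to 2.26 times Yes1. The coefficients of variation of these ratios over 6 libraries were 4.45%, 3.30% and 6.23%. Those of Src, Fyn and Yes1 alone were 11.2%, 12.2% and 11.0% as deposited and 6.02%, 5.55% and 4.41% after the scaling of libraries described below, so Src over Yes1 was no steadier than either gene once scaled. Rap1b over Rap1a, at 6.68%, and Pafah1b1 over Crk, at 6.76%, were about as steady. The remaining ratios varied more, from 10.3% for Rap1b over Rapgef1 to 20.7% for Dab1 over Reln. Dab1 over Fyn was the 1 other ratio, of 12 examined, whose groups did not overlap. It was 0.462, 0.438 and 0.502 in wild type and 0.364, 0.359 and 0.435 in heterozygous libraries (two-sided exact permutation p = 0.1, the smallest possible; 0.6 after Benjamini-Hochberg adjustment over the 12). It was lower in 3 of 3 heterozygous libraries than in any wild-type library, by as little as 0.435 against 0.438. Of all tested genes set over Fyn in the same way, 4.72% had groups that did not overlap.

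**Figure D2:**
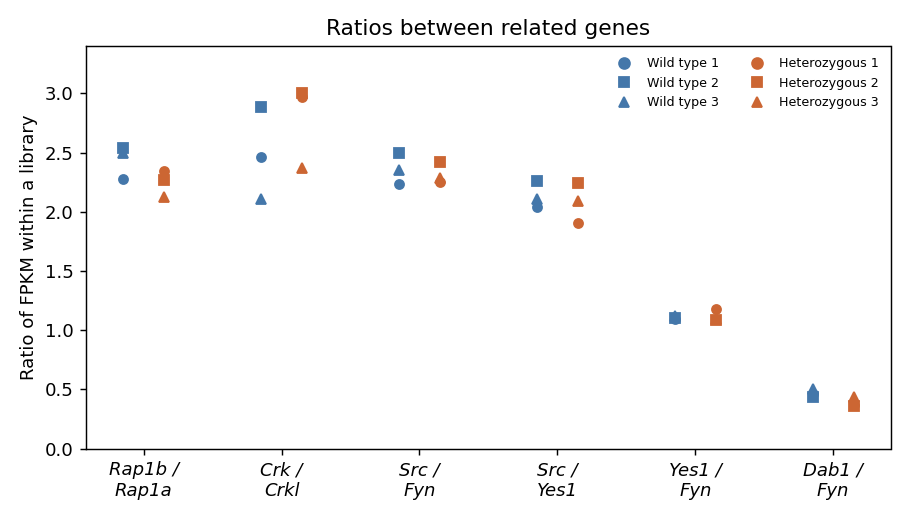
Ratio of FPKM between related genes within each library (linear axis from 0), for wild-type (blue) and heterozygous (orange) libraries, with marker shapes for replicates 1 to 3. Src over Fyn stayed between 2.23 and 2.50 and Yes1 over Fyn between 1.08 and 1.18, while Crk over Crkl ranged from 2.11 to 3.00.

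The adaptors Crk and Crkl, whose SH2 domains bind phosphorylated Dab1, varied less closely together. Crk (chr11:75679259-75706908) had 4.37, 3.13 and 3.70 FPKM in the wild-type replicates against 3.82, 4.84 and 3.71 in the heterozygous ones. The lowest and the highest value were those of replicate 2 of each group, and the groups overlapped. Its log2 difference was 0.12 (95% interval -0.15 to 0.38, limma adjusted p = 0.90), and leaving out 1 library moved it both ways: it was 0.018 without heterozygous replicate 2, 0.021 without wild-type replicate 2, 0.17 without heterozygous replicate 3 and 0.21 without wild-type replicate 1. Crkl (chr16:17451987-17487434) had 1.78, 1.08 and 1.76 FPKM against 1.28, 1.61 and 1.57. Wild-type replicate 2 was the lowest library for Crkl and the other 2 wild-type libraries the highest, so all 3 heterozygous values fell between them. Its log2 difference was -0.020 (95% interval -0.23 to 0.19, limma adjusted p = 0.96). It became 0.051 without wild-type replicate 1, 0.046 without wild-type replicate 3 and 0.041 without heterozygous replicate 1, and it was -0.16 without wild-type replicate 2. Crk RNA was 2.46, 2.88 and 2.11 times Crkl RNA in wild type and 2.97, 3.00 and 2.37 times in heterozygous libraries, with overlap.

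Rapgef1 (chr2:29619720-29740978) encodes the exchange factor that switches Rap1 on, and its level was nearly the same in both groups. Wild-type replicates 1, 2 and 3 had 0.563, 0.462 and 0.594 FPKM, and the heterozygous ones had 0.476, 0.571 and 0.576 FPKM. The lowest and the highest library were both wild type. The means were 0.540 ± 0.069 and 0.541 ± 0.057 FPKM (SD, n = 3 each, two-sided exact permutation p = 1). Its log2 difference of 0.0016 had a 95% interval of -0.12 to 0.13 with the minimum at 0.1 FPKM, and its direction turned with the library left out (-0.035 without wild-type replicate 2, -0.013 and -0.015 without heterozygous replicates 2 and 3).

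The small GTPase gene Rap1a (chr3:105727267-105801336) had 0.776, 0.550 and 0.625 FPKM in the wild-type replicates against 0.690, 0.775 and 0.711 in the heterozygous ones. Wild-type replicate 1 was the highest library and wild-type replicates 2 and 3 the lowest, so the 2 groups overlapped (ratio of means 1.12, two-sided exact permutation p = 0.4). Its paralog Rap1b (chr10:117813871-117846035) had 1.77, 1.40 and 1.56 FPKM against 1.62, 1.76 and 1.51, which overlapped, with a log2 difference of 0.030 (95% interval -0.17 to 0.23, limma adjusted p = 0.94) that was -0.020 without wild-type replicate 2 and -0.0047 without heterozygous replicate 2. Rap1b was the more abundant paralog in 6 of 6 libraries. Its ratio to Rap1a was 2.28, 2.54 and 2.50 in wild type and 2.34, 2.27 and 2.12 in heterozygous libraries, with overlap (two-sided exact permutation p = 0.2; 0.6 after Benjamini-Hochberg adjustment over 12 ratios). The stretches printed above show that even the closest coding bases separate the 2 genes. They do not bear on reads that Rap1a shares with the pseudogene Gm9392.

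Pafah1b1 (chr11:74673949-74724670) encodes Lis1, whose loss causes lissencephaly, and had the highest level of the 10 genes. Wild-type replicates 1, 2 and 3 had 9.41, 7.37 and 9.42 FPKM, and the heterozygous ones had 8.71, 10.7 and 9.28. The lowest and the highest value belonged to replicate 2 of each group, and the other 4 libraries lay between 8.71 and 9.42 FPKM. Its log2 difference was 0.12 (95% interval -0.18 to 0.41, limma adjusted p = 0.90), which was 0.014 without wild-type replicate 2 and 0.045 without heterozygous replicate 2.

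Most of the genes moved with the library as a whole. Wild-type replicate 2 was the lowest library for 9 of the 10 genes, as it was for 78.4% of all tested genes, and heterozygous replicate 2 was the highest for 5 of 10, as for 56.3%. Relative to each gene's own geometric mean over the 6 libraries, the median of the 10 genes was 0.808 in wild-type replicate 2 and 1.11 in heterozygous replicate 2. The median of all tested genes was 0.840 and 1.14 there. Summed choroid plexus markers were 0.811 FPKM in the former and 163 in the latter, with 286 in wild-type replicate 1, and their part in this was not tested.

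**Figure D3:**
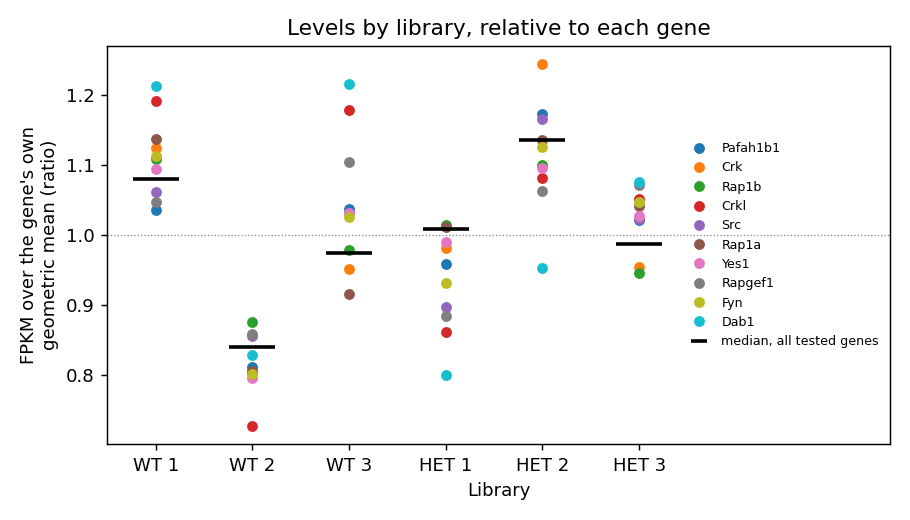
FPKM of each of the 10 genes in each library divided by that gene's geometric mean over the 6 libraries (linear axis), with black bars for the median of all tested genes. In WT replicate 2 the median of the 10 genes was 0.808 and that of all tested genes 0.840, and Dab1 and Crkl lie farthest above the bar in WT replicate 3 and farthest below it in HET replicate 1.

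Libraries were therefore also compared after median-of-ratios scaling, which divides each by its median ratio to the others. This moved the median log2 difference of all tested genes from 0.083 to -0.0014, and the share of tested genes with a higher mean in heterozygous libraries, 83.1% before scaling, gave way to 50.9% with a lower mean. Of the 5 tested genes, 4 had a higher mean as deposited and 3 a lower mean after scaling. Of all 10, 8 were higher before scaling and 7 lower after it. The differences of Src, Rap1b, Fyn, Yes1 and Rapgef1 turned from higher to lower, at -0.029, -0.042, -0.0098, -0.0055 and -0.039. Crk (0.022), Pafah1b1 (0.013) and Rap1a (0.021) kept a higher mean, and Dab1 (-0.053) and Crkl (-0.085) a lower one. None passed the limma test after scaling. Of all 6349 genes tested on that scale 0 passed, so this outcome says little about these genes. For 0 of the 5 tested genes were the groups apart, against 10.9% of all tested genes.

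Scaling narrowed the spread of some genes and not of others. The median coefficient of variation of the 10 genes over 6 libraries went from 12% to 5.52%, beside 12.7% and 7.55% for all tested genes. Rap1b went from 8.99% to 3.25%, and 4.99% of tested genes had a smaller value. Scaled Rap1b was 1.63 ± 0.030 in wild type and 1.56 ± 0.040 in heterozygous libraries (SD, n = 3 each), a difference larger than either SD, but wild-type replicate 3 (1.603) lay below heterozygous replicate 1 (1.605) and the two-sided exact permutation p was 0.2. Pafah1b1 went from 11.8% to 4.81% and Crk from 15.2% to 5.48%. Dab1 went only from 18.1% to 17.2% and Crkl from 18.2% to 14.1%, and 88.0% of tested genes varied less than Crkl. The mean of Dab1 lay below the 1 FPKM minimum of the tested genes. How much of its spread came from the counting of reads was not tested. Scaled Crkl was 1.65, 1.29 and 1.81 in wild type and 1.27, 1.42 and 1.59 in heterozygous libraries, so the low libraries came from both groups. Scaled Dab1 was 0.233, 0.205 and 0.259 in wild type and 0.165, 0.174 and 0.226 in heterozygous libraries, with heterozygous replicates 1 and 2 the lowest and an overlap through replicate 3 (ratio of means 0.811, two-sided exact permutation p = 0.2). Heterozygous replicate 1 was the lowest scaled library for 6 of the 10 genes and wild-type replicate 3 the highest for 6. The matching shares of all tested genes after scaling were not computed, so these counts say little about the 10 genes as a set.

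**Figure D4:**
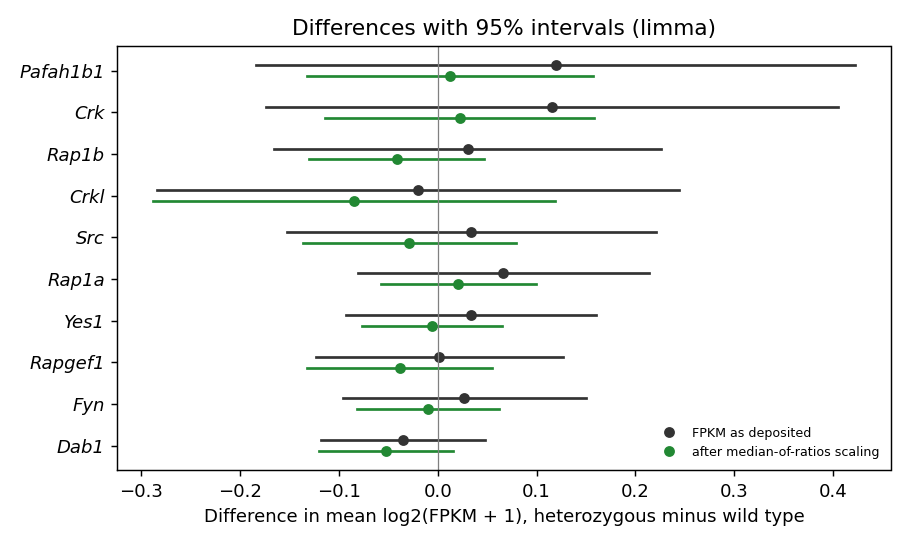
Heterozygous minus wild-type mean of log2(FPKM + 1) for each of the 10 genes, with 95% limma intervals at a minimum mean of 0.1 FPKM, as deposited (black) and after median-of-ratios scaling (green). Every interval spans 0; that of Dab1 runs from -0.12 to 0.048 as deposited and from -0.12 to 0.015 after scaling.

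After scaling, the 95% intervals at the minimum of 0.1 FPKM gave the uncertainty of each difference, from the spread between these libraries. They ran from -0.082 to 0.062 for Fyn, from -0.076 to 0.065 for Yes1, from -0.14 to 0.079 for Src, from -0.13 to 0.16 for Pafah1b1 and from -0.29 to 0.12 for Crkl, all on the log2(FPKM + 1) scale, which understates changes of genes below 1 FPKM. The scaled fit at this minimum was chosen after the data were seen. These intervals leave room for differences inside them, so equal expression was not shown.

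Likeness of pattern was measured by Pearson's r of scaled log2(FPKM + 1) over the 6 libraries, as a description. Among the 10 genes the closest pair was Fyn and Crkl (r = 0.920), and Crkl was also the nearest to Yes1 (0.889) and Dab1 (0.879). Low values were found for 3 genes: the highest r of Crk and of Rap1a was 0.269, to each other, and that of Rap1b was 0.132, to Dab1. Over all tested genes the nearest to Dab1 were Klhl42 (0.993), Zmym1 (0.992) and Dpp8 (0.991), out of 208 genes above 0.9, and the nearest to Pafah1b1 were Dr1 (0.992), Tnks2 (0.985) and Mprip (0.985), out of 50. The libraries are shared by all genes, and with only 6 of them many genes reach such values.

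Other genes of the pathway did not pass the test either. In 7 lists, 103 genes had a value in every library and 57 of them were tested. Of these 57, 0 passed, beside 0.0786% of all tested genes, so the count says little about the lists. The smallest unadjusted limma p was 0.16. A higher mean in heterozygous libraries was found for 49 of 57 (86.0%, beside 83.1% of all tested genes), with a median log2 difference of 0.078 beside 0.083. After scaling 21 were higher and 36 lower, with a median of -0.0076. Of all tested genes 50.9% were lower on that scale, with a median of -0.0014, and this background also applies to the scaled counts by list below. The groups did not overlap for 2 of 57 as deposited and for 2 of 57 after scaling, beside 5.55% and 10.9% of all tested genes. In the list of the Lis1-dynein complex, 15 of 17 had a higher mean as deposited (5 of 17 after scaling), and the smallest p belonged to Dctn2, a dynactin subunit, at 9.33 ± 0.86 and 10.95 ± 1.00 FPKM (SD, n = 3 each, limma adjusted p = 0.90). In the branch through PI3K, Akt and GSK3, 11 of 13 had a higher mean (5 after scaling), with Crmp1, a microtubule-binding phosphoprotein, at 1.93 ± 0.11 and 2.24 ± 0.26 FPKM (SD, n = 3 each, limma adjusted p = 0.90); its groups did not overlap as deposited and overlapped after scaling.

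Among genes that bind Dab1 or turn it over, 8 of 9 had a higher mean (3 after scaling). The groups did not overlap for Socs2 as deposited (log2 difference 0.12, limma adjusted p = 0.90) and for Socs7 after scaling (-0.088, limma adjusted p = 0.78), both from the family of cytokine signalling suppressors and named here after their values were seen. Rnf7, the RING subunit that works with the ubiquitin ligase scaffold Cul5, stood at 7.87 ± 0.92 and 8.92 ± 0.62 FPKM (SD, n = 3 each, limma adjusted p = 0.90). Of the other Rap1 exchange factors, GTPase-activating proteins and effectors, 6 of 7 had a higher mean (2 after scaling), with the small GTPase gene Rap2c at a log2 difference of 0.079. Of the actin regulators it was 6 of 7 (5 after scaling), with Rhoa at 0.18, whose groups overlapped as deposited and did not after scaling. Both other Src-family kinases or regulators tested had a higher mean (1 after scaling), with the phosphatase gene Ptpn11 at 0.089. Of the receptors, Vldlr differed by 0.016 (limma adjusted p = 0.98), and both tested receptors had a lower mean after scaling.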

How the data were processed

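RNA-seq values were used for 3 wild-type and 3 heterozygous cerebellum libraries, grouped and numbered by their titles. The authors deposited FPKM, 1 library per file, made by removing mitochondrial and ribosomal reads, trimming 2 bases, aligning to mm10 with TopHat2 and Bowtie 1 and quantifying with Cufflinks, per the labels' protocols. No source at hand names the annotation release or the strand setting. Cuffdiff 2.1.1 is also named in the submitters' processing notes, and its results were not used. FPKM are not counts, so no count test was run, and they divide by library size, so abundant RNAs can shift all other genes. Small RNA genes took 7.36% to 21.7% of the summed FPKM.

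In heterozygous replicate 2, 40 values read as dates; those genes were left out, which left 24497 genes. The 6358 genes that averaged 1 FPKM or more were tested on log2(FPKM + 1) with limma 3.58.1 (R 4.3.3) and its intensity trend; p-values were adjusted by Benjamini-Hochberg over all of them, with 0.05 as threshold. The trend held 54.4 degrees of freedom against 4 of a gene's own. The script was checked on simulated data without shifts of whole libraries, so that check does not bear on the results for these genes. Genes under the minimum had a two-sided exact permutation test. The approximate depth came from the lowest values of 3159 genes with a single transcript in GENCODE M21 (GRCm38, the build called mm10), without correction for effective length, and was used for no test. Sequences came from GENCODE M21 and RefSeq. Other tools were biopython 1.88, matplotlib 3.10.9, scipy 1.17.1, numpy 2.4.6 and pandas 2.3.3 under Python 3.11.15.

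The 10 genes and the lists were chosen with earlier results of these data known. By rule, all 10 genes were named, with the gene of smallest p in each other list; the 12 ratios were chosen after values were seen. Alternatives were other pseudocounts, filters and scalings, no trend, a replicate block, and each library left out.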

Additional observations from a re-analysis of the deposited data

How the results depend on the processing

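None of the tested genes of the 10 passed limma in any of the 17 alternatives (other pseudocounts, filters, scalings, no trend, replicate block, libraries left out), where the lowest adjusted p was 0.37, without wild-type replicate 1. Dab1 kept a lower mean in the 12 alternatives run for it (-0.13 to -0.017) and Rap1a a higher one in its 14 (0.0012, without both replicates 2, to 0.15). Deviations of same-numbered libraries from their group means, as deposited, had correlations over genes of -0.28, -0.52 and 0.14. Shifts of whole libraries enter these correlations (scaling factor 0.84 in wild-type and 1.14 in heterozygous replicate 2), so they cannot show whether libraries were paired. With the replicate block the differences were as before (0.12 for Pafah1b1, limma adjusted p = 0.996), with 13 genes passing over all genes against 5. Over the other alternatives 0 to 67 genes of all tested passed, with 62 without wild-type replicate 1 and 67 without both replicates 2.

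Signs of small differences turned with scaling. With median-of-ratios scaling Fyn was -0.0098, Src -0.029, Yes1 -0.0055, Rapgef1 -0.039 and Rap1b -0.042. With quantile normalization Src was -0.0033, Rapgef1 -0.021 and Rap1b -0.022. With small RNA genes left out and the rest rescaled Fyn was -0.015, Src -0.037, Yes1 -0.011, Rapgef1 -0.044, Rap1b -0.051 and Pafah1b1 -0.00083. Leaving out both replicates 2 and scaling at a minimum of 0.1 FPKM were added after the data were seen. Without both replicates 2 Fyn was -0.038, Src -0.068, Yes1 -0.027, Crk -0.077, Rapgef1 -0.050, Rap1b -0.055 and Pafah1b1 -0.060. Crkl, whose sign did not turn there, was -0.19. In that fit 1 of the 5 tested genes had an unadjusted limma p under 0.05, and the lowest limma adjusted p was 0.86. Leaving out 1 library gave -0.16 to 0.051 for Crkl, -0.016 to 0.059 for Fyn, -0.017 to 0.084 for Src, -0.013 to 0.065 for Yes1, -0.035 to 0.033 for Rapgef1 and -0.020 to 0.083 for Rap1b, all spanning 0, and -0.067 to -0.017 for Dab1, 0.018 to 0.21 for Crk, 0.022 to 0.12 for Rap1a and 0.014 to 0.18 for Pafah1b1. The cause was not tested.

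Groups that did not overlap were found for 1 of 5 genes with small RNA genes left out (Rap1b, beside 10.5% of all tested genes) and for 3 of 5 without both replicates 2 (Src, Crkl and Pafah1b1, beside 29.8%). Leaving out 1 library gave 0 to 1: Crk without wild-type replicate 1 (beside 40.8%) and Crkl without wild-type replicate 2 (beside 13.3%). The reads behind each value are not known, so what depth limits could not be stated.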
